A study of Mus musculus with 39 samples.

Results

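The knockout effect in lung was set against the knockout effect in colon of the same study. The measurements were made on mRNA-enriched RNA of C57BL/6N mice after a sham operation, and 4 groups were used: wild-type (WT) lung, Cd177 knockout (KO) lung, WT colon and KO colon, with 5 libraries in each. These are 20 of the 39 libraries in the series, and the other libraries, from mice with acute pancreatitis, entered 1 alternative only. Each gene's KO minus WT difference was taken within a tissue on log2(FPKM + 1), where FPKM is the fragment count scaled for transcript length and library size, and the colon difference was then subtracted from the lung difference. A positive tissue difference therefore means that the KO value, relative to WT, was higher in lung than in colon. Of the 55357 genes in the tables, 12905 had at least 1 FPKM in at least 4 sham libraries of each tissue and were compared. A further 2192 genes reached that level in lung alone and 1330 in colon alone, and these were not tested. The labels do not say how the knockout was made, which of its cells were altered, the age or sex of the mice, whether KO and WT mice were littermates, or whether a lung and a colon library came from 1 animal. They also do not say that libraries of a group came from separate animals, so the p-values measure the spread between these libraries. In bulk tissue, fewer cells of a type and less RNA per cell cannot be told apart.

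CD177 is a glycoprotein on the surface of neutrophils that binds PECAM1 on endothelial cells, and the gene is also transcribed in colon epithelium. Many of the genes below belong to programmes that work in most tissues. NRF2 is a transcription factor that is held back by KEAP1 until electrophiles or oxidants appear, and it then switches on glutathione transferases and other detoxifying enzymes through antioxidant response elements. The circadian clock is a feedback loop in which BMAL1 (Arntl) and CLOCK activate genes with E-boxes, among them the Per, Cry and Nr1d repressors and the output factors Dbp and Tef, and DBP and TEF in turn bind D-boxes. Peripheral clocks also follow feeding and glucocorticoids, and lung and gut mucosa are among the tissues with the largest contact with oxidants, microbes and foreign chemicals.

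Sequence before the start of some of these genes is shown because the clock genes printed here include 1 that rose in both tissues and 2 that rose in colon only, and the detoxification and proteasome genes rose in both. The stretches come from RefSeq promoters on GRCm38.p6, run from 5′ to 3′ on the strand of the gene and end before its start, with the matched motif in capitals. The motifs searched, on both strands and in 250 bases before to 50 bases after the start, were the E-box CACGTG, the D-box TTATGTAA and the antioxidant response element TGACNNNGC, whose other strand reads GCNNNGTCA. Ciart, a clock repressor, held 3 E-boxes (chr3:95882232-95882379, minus strand), and it was called higher in KO colon and was not called in lung.
Ciart: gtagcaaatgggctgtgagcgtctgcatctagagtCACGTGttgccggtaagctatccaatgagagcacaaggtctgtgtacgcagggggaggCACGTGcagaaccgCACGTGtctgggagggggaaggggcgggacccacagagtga
Tef, an output factor of the clock, held 1 E-box (chr15:81802511-81802586, plus strand) and had the same pattern as Ciart.
Tef: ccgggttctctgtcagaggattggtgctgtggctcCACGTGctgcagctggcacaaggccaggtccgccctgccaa
Per3, a period gene with 2 D-boxes (chr4:151044781-151044905, minus strand), rose in both tissues.
Per3: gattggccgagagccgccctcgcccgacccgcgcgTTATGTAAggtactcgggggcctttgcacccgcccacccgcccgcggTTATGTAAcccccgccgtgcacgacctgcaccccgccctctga
Prdx1 encodes a peroxiredoxin that reduces peroxides, and its antioxidant response element lies on the other strand (chr4:116685431-116685509, plus strand).
Prdx1: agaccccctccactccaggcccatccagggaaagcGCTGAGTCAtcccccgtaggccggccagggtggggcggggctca
Mgst1 encodes a membrane-bound glutathione transferase and also has its match on the other strand (chr6:138140436-138140514, plus strand).
Mgst1: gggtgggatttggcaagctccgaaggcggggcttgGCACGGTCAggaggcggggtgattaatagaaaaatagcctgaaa
Psmb5 encodes a catalytic subunit of the proteasome (chr14:54617999-54618077, minus strand).
Psmb5: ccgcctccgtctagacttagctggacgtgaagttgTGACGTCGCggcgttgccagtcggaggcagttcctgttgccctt
Prdx1, Mgst1 and Psmb5 rose in both tissues in the main fit. The calls of Mgst1 depended on the scaling and on transcript length, as given below. Among all 32851 promoters in the table, 12.4% held the antioxidant response element, 7.15% the E-box and 0.938% the D-box, and among the 9488 promoters of genes tested the shares were 15.1%, 10.3% and 0.432%. Of the NRF2 target list, 16 members had a promoter in the table and 6 of them held the element, as did 3 of 19 glutathione transferases. Of the clock list 4 of 14 held an E-box, 1 of 14 a D-box and 4 of 14 the antioxidant response element. The E-box was in 0 of 16 NRF2 target and 0 of 19 glutathione transferase promoters. All stretches printed are of genes with a match. The promoters of the genes that rose in lung only held the antioxidant response element in 26 of 149 cases (17.4%), and those of the genes that rose in both tissues in 224 of 1349 (16.6%), both near the share of the genes tested. A match in these windows is a description of the letters and no measure of binding.

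The knockout and the tissues were checked first. Cd177 was listed at 0 FPKM in all 10 KO libraries. The WT lung libraries had 3.59, 1.75, 2.02, 1.3 and 1.39 FPKM, and the WT colon libraries had 40.2, 39.9, 38.5, 52.1 and 45.2 FPKM. The groups did not overlap in either tissue (exact two-sided permutation test, p = 0.00794 in each, the smallest that 5 against 5 allows). With KO at 0 in both tissues, the tissue difference of 3.91 log2 for this gene is the difference of its WT levels and nothing more. The same scale property touches every gene that is near 0 in 1 tissue: log2(FPKM + 1) understates its change there. The surfactant genes Sftpc and Sftpb were at most 0.148 and 0.335 FPKM in colon libraries and at least 10205 and 1679 FPKM in lung libraries, and the intestinal factor Cdx2 was listed at 0 in every lung library. Estimated from the spacing of low FPKM values, read totals were 57.9 to 71.2 M in WT lung, 77.0 to 93.8 M in KO lung, 55.5 to 76.6 M in WT colon and 77.7 to 91.2 M reads in KO colon. All KO libraries were thus deeper than all WT libraries of their tissue, so depth and genotype cannot be told apart. KO libraries were also less alike than WT libraries: the mean correlation of a library with its own group was 0.981 to 0.988 in WT lung and 0.931 to 0.961 in KO lung. In colon it was 0.947 to 0.978 in WT and 0.943 to 0.959 in KO. The library of KO lung replicate 4 lacked or had little of the rise of several detoxification genes, KO colon replicate 5 had a summed level above every WT colon library for MHC class II, T and NK cell and macrophage genes and below them for B and plasma cell genes (1547 against 1784 to 4285 FPKM), and WT colon replicate 2 stood apart from the other WT colon libraries in stress genes, so counts are also given without these 3 libraries, a choice made after their values were seen.

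More genes were called in lung than in colon, and most colon calls were shared with lung. In lung 7261 genes passed an adjusted p of 0.05, which is 56.3% of those tested, with 3578 higher in KO (27.7%) and 3683 lower (28.5%). In colon 4637 genes passed (35.9%), 2439 higher (18.9%) and 2198 lower (17%). Of the lung calls 48.3%, and of the colon calls 75.6%, were called in the same direction in the other tissue, which gave 1852 shared rises (14.4% of the genes tested) and 1653 shared falls (12.8%). On the TPM scale, where each library is scaled to the same total, shared rises numbered 990 and shared falls 1966, and with the trend on transcript length removed 1489 and 986. Across genes, the lung and colon differences had a Spearman correlation of 0.722, a description in which genes are not independent and share libraries, depth and transcript length. Among the genes tested, 332 had no library of 1 genotype at 1 FPKM in 1 of the tissues, so they passed the filter there through the other genotype alone. Of the genes named, these were Cd177 in both tissues, Gsta1, Ank1 and Cd28 in lung, and Ciart, Angptl4, Il7r, Ptprb and Erg in colon. The test of the tissue difference itself passed for 1000 genes (7.75%), 305 of them higher in lung relative to colon (2.36%) and 695 lower (5.39%). Without the 3 libraries named above it passed for 1848 genes, and shared rises numbered 2068 and shared falls 1978. The share of higher calls depended on the scaling: of the lung calls it was 49.3% on the FPKM scale, 32.1% on the TPM scale and 32% after rescaling without mitochondrial and hemoglobin genes, and of the colon calls 52.6%, 33.5% and 32.2%, and 39.2% with upper quartile scaling. Of the tissue differences, 30.5% were upward on the FPKM scale and 44.2% with upper quartile scaling.

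The 1000 genes fell into groups by what each tissue showed. Among them 235 were shared in direction but differed in size, and 228 of these had the larger change in lung. Genes called in lung, not in colon and with the difference itself passing are called lung only here. There were 191 such rises (1.48%) and 403 such falls (3.12%). Colon only in the same sense were 55 rises (0.426%) and 54 falls (0.418%). Opposite calls were rare: 28 genes rose in lung and fell in colon (0.217%), and 31 fell in lung and rose in colon (0.24%). The difference passed for all 59, which opposite calls from the same fit make almost certain, so it is no further support. The difference passed without a call in either tissue for 3 genes. A further 3103 genes were called in lung alone and 964 in colon alone without the difference passing, so these are not shown to belong to 1 tissue. Leaving out 1 library at a time moved the number of genes with a tissue difference between 578, without WT lung replicate 4, and 1621, without KO lung replicate 4.

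**Figure D1:**
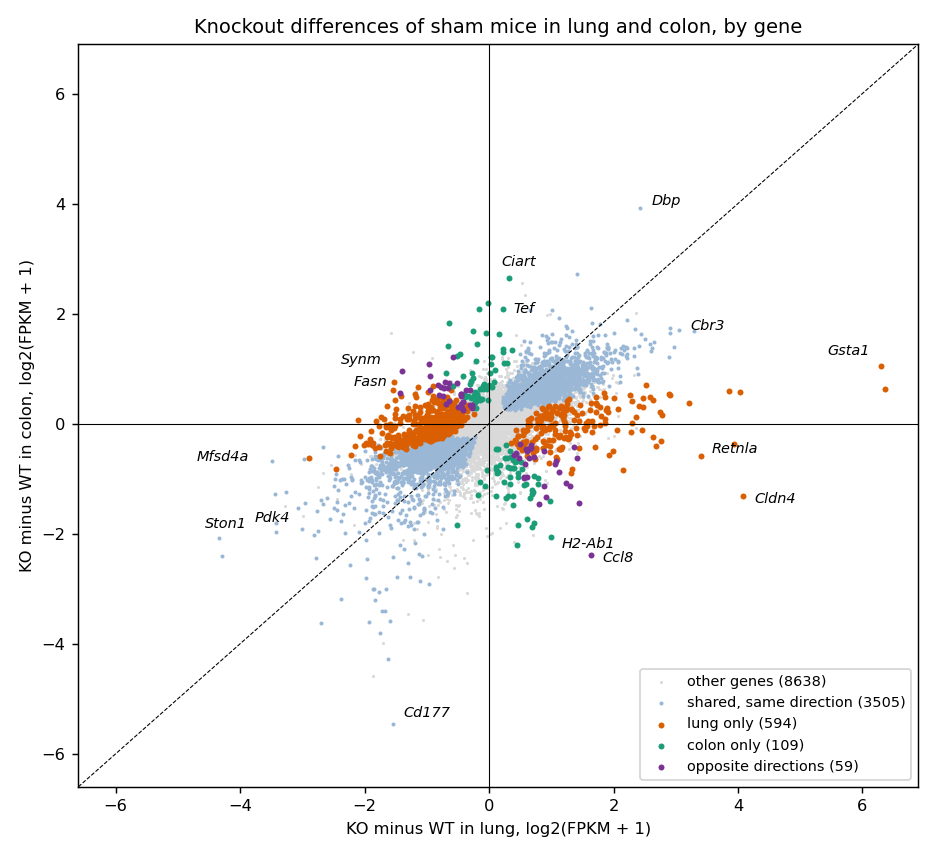
Each point is 1 of the 12905 genes, with KO minus WT in lung on the x axis and in colon on the y axis, both on log2(FPKM + 1), coloured by the class of the gene; the dashed line marks equal differences. Shared genes run along the diagonal, the 594 lung only genes lie along the x axis, the 109 colon only genes along the y axis and the 59 opposite genes in the upper left and lower right.

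The direction of a call went with transcript length in both tissues. Among the shortest of 4 equal groups of transcripts (up to 1905 bases) 52.9% of genes rose and 8.63% fell in lung, and among the longest (4587 bases or more) 6.41% rose and 58.8% fell. The colon had 32.1% and 8.38% in the shortest group and 4.91% and 35.8% in the longest. Across genes the Spearman correlation of the difference with length was -0.508 in lung, -0.391 in colon and -0.368 for the tissue difference. Median length was 1963 bases for shared rises, 5125 for shared falls, 1760 for lung only rises and 4270 for lung only falls, against 3133 for all genes tested. With the trend on length removed, 1129 of the 1852 shared rises, 791 of the 1653 shared falls, 128 of the 191 lung only rises and 227 of the 403 lung only falls kept their class. Beyond the removal of this trend, the part of length in the differences was not tested. Whether RNA quality or depth has a part in them was not tested either.

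**Figure D2:**
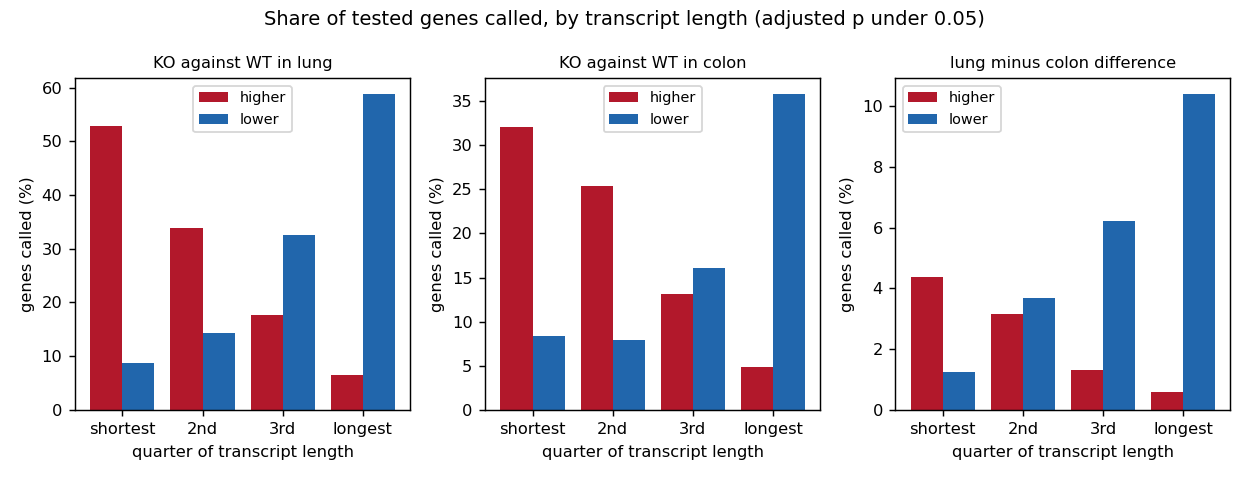
Bars give the percent of tested genes called higher (red) or lower (blue) at an adjusted p under 0.05 in 4 equal groups of transcript length, for KO against WT in lung, in colon, and for the lung minus colon difference; the 3 y axes differ. Rises fall from 52.9% to 6.41% in lung and from 32.1% to 4.91% in colon between the shortest and the longest group.

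Clock genes were found in several classes. Dbp, a D-box-binding output factor, had 3.29, 1.32, 4.78, 8.66 and 17.6 FPKM in WT lung and 33.9, 12.4, 28.5, 36.1 and 91.9 FPKM in KO lung. In colon the WT libraries had 1.06, 1.25, 1.45, 2.14 and 2.51 FPKM and the KO libraries 108, 48.6, 40.8, 11 and 35 FPKM. All KO colon libraries lay above all WT colon libraries, while 1 KO lung library lay within the WT range. Dbp rose by 2.43 ± 0.55 (SE) log2 in lung and 3.91 ± 0.55 log2 in colon (adjusted p = 0.00106 and 6.87e-05), and the difference of -1.48 (95% interval -3.12 to 0.15) did not pass (adjusted p = 0.253).

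Arntl, which encodes the activator BMAL1, fell in both tissues. Its values were 15.4, 16.5, 13.2, 13.4 and 10.4 FPKM in WT lung and 1.28, 3.33, 2.4, 1.53 and 1.61 FPKM in KO lung, then 20.5, 20.8, 23.5, 22 and 19.8 FPKM in WT colon and 2.57, 3.86, 2.84, 9.36 and 7.23 FPKM in KO colon. Every KO library was below every WT library of its tissue. The falls of -2.31 ± 0.24 and -1.99 ± 0.24 log2 (adjusted p = 5.19e-07 and 1.99e-05) differed by -0.33 (95% interval -1.04 to 0.39). Per3 rose by 1.003 log2 in lung and 1.18 log2 in colon with no overlap of the groups.

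Ciart and Tef, whose E-boxes are printed above, rose in colon and were not called in lung. Ciart had 11.4, 11.7, 10.1, 11.7 and 15.4 FPKM in WT lung and 15.5, 14.5, 11.7, 25.3 and 12 FPKM in KO lung. The WT colon libraries had 0.282, 0.251, 0.752, 0.712 and 0.856 FPKM and the KO colon libraries 18.4, 12.3, 10.2, 2.48 and 7.27 FPKM. Levels in lung overlapped, and in colon every KO library lay above every WT library, all of which were under 1 FPKM, so that Ciart passed the filter in colon through KO alone. The tissue difference was -2.32 ± 0.45 log2 (adjusted p = 0.00577). Tef had the same pattern, from 6.33 ± 0.519 FPKM (SD, n = 5) in WT colon to 32.2 ± 14 FPKM in KO colon, against 83.2 ± 19.6 and 96.8 ± 20.1 FPKM in lung. Its tissue difference was -1.86 ± 0.32 log2 (adjusted p = 0.00273). Nr1d1, the REV-ERB alpha repressor of Arntl, rose by 1.82 log2 in colon and had -0.64 log2 in lung, which did not pass (adjusted p = 0.278); its tissue difference of -2.46 (adjusted p = 0.0367) no longer passed in 11 of the 20 fits that leave out 1 library. Cry2, a repressor of CLOCK and BMAL1, fell by 0.42 log2 in lung and rose by 0.3956 log2 in colon (adjusted p of the difference = 0.0139), and its colon call was lost in 4 of the 20 fits, with an adjusted p of up to 0.0754 without WT colon replicate 5. On the TPM scale neither the colon rise nor the difference of Cry2 passed (adjusted p = 0.362 and 0.0621), and its lung fall did not with the length trend removed (adjusted p = 0.128). Of 17 clock genes tested, 5 rose and 5 fell in lung and 10 rose and 4 fell in colon, against 56.3% and 35.9% of all genes called in either direction, so that the lung share of 10 of 17 was near the background. In both tissues 4 rose and 2 fell, and the tissue difference passed for 2 upward and 5 downward, against 7.75% of all genes. It passed for 3 on the TPM scale, all downward. The list median was 0.22 log2 in lung and 0.54 log2 in colon, against -0.0023 and 0.023 for all genes, and the lung median was -0.055 on the TPM scale, which moves the median of all genes in lung to -0.259. No source used here gives collection times.

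**Figure D3:**
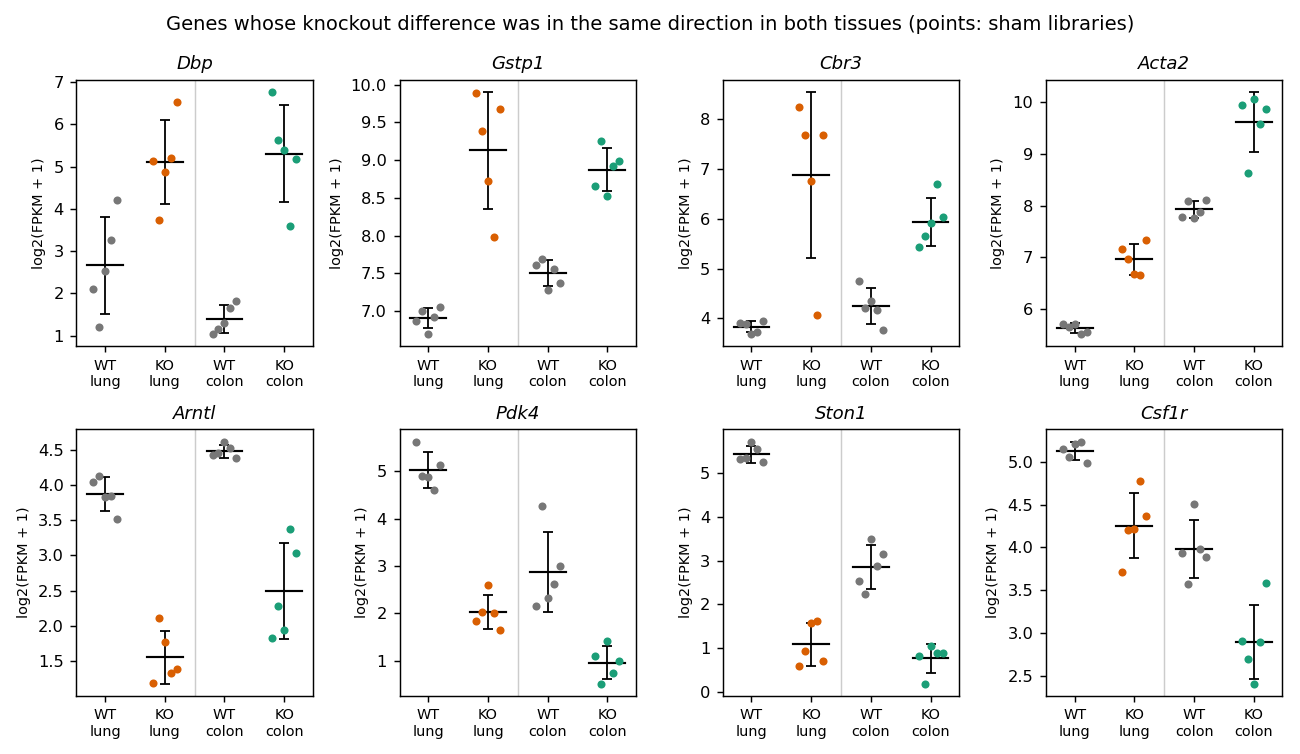
Points are the 5 sham libraries of each group for 8 genes with the same direction in both tissues, on a log2(FPKM + 1) axis that differs between panels and does not start at 0; bars are the mean and error bars the SD. Dbp, Gstp1, Cbr3 and Acta2 are higher in KO, and Arntl, Pdk4, Ston1 and Csf1r lower, in both lung and colon.

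Of 20 NRF2 targets tested outside the glutathione transferases, 16 rose in lung and 5 in colon, all 5 of them also in lung, none fell, and the tissue difference passed for 3, all toward lung. Over all genes tested, 27.7% rose in lung and 18.9% in colon, and the tissue difference passed for 7.75%. The median of these targets was 1.34 log2 in lung and 0.45 log2 in colon, and on the TPM scale 13 rose in lung and 3 in colon. Prdx1 had 73.8, 85.6, 79.4, 91.1 and 96.1 FPKM in WT lung and 501, 333, 248, 159 and 408 FPKM in KO lung. In colon it had 114, 134, 93.4, 102 and 91.2 FPKM in WT and 181, 308, 218, 255 and 269 FPKM in KO. All KO libraries were above all WT libraries in each tissue, with KO lung replicate 4 the lowest of its group. The rises were 1.84 ± 0.23 and 1.19 ± 0.23 log2 (adjusted p = 3.24e-06 and 0.000879). Tkt and Gsr, which encode transketolase of the pentose phosphate pathway and glutathione reductase, also rose in both, by 1.29 and 1.39 log2 in lung and by 0.96 and 0.73 log2 in colon, where the call of Gsr was lost on the TPM scale (adjusted p = 0.0763).

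Srxn1, Taldo1 and Blvrb passed the test of the difference. Srxn1, the sulfiredoxin that restores overoxidized peroxiredoxins, had 8.61, 9.39, 7.97, 8.64 and 8.56 FPKM in WT lung and 212, 122, 49.8, 10.9 and 68.7 FPKM in KO lung. In colon the values were 34.1, 77, 33.4, 35.7 and 37.1 FPKM in WT and 47.6, 72.4, 50.7, 39.1 and 36.4 FPKM in KO. The lung groups did not overlap although KO replicate 4 was close to WT, and the colon groups overlapped. Its tissue difference was 2.53 ± 0.69 log2 (adjusted p = 0.0314), it no longer passed in 8 of the 20 fits that leave out 1 library, and the highest adjusted p was 0.064, without KO lung replicate 2. Taldo1 (transaldolase) and Blvrb (biliverdin reductase B) had differences of 1.82 and 2.29 log2 (adjusted p = 0.0174 and 0.0236). The lung groups of Blvrb overlapped, with 21.3 FPKM in KO replicate 4 and 21.5 FPKM in WT replicate 2. Without the 3 libraries named above, 17 targets rose in lung, 11 in colon and 11 had a tissue difference.

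Glutathione transferases join glutathione to electrophiles. Of 21 tested, 13 rose in lung and 8 in colon, 7 of them in both, none fell, and the tissue difference passed for 4, all toward lung. Shares of all genes were 27.7% for rises in lung, 18.9% for rises in colon and 7.75% for the tissue difference. The list median was 0.99 log2 in lung and 0.50 log2 in colon, and on the TPM scale 11 rose and 1 fell in lung and 2 rose in colon. With the length trend removed 9 rose and 3 fell in lung, 2 rose in colon, the tissue difference passed for 3 upward and 1 downward, and the lung median was 0.49 log2. Gstp1, the pi class enzyme, rose in both tissues. WT lung had 116, 127, 103, 120 and 132 FPKM and KO lung 946, 665, 420, 253 and 814 FPKM, and WT colon had 195, 206, 154, 188 and 165 FPKM and KO colon 404, 607, 369, 486 and 508 FPKM. No KO library reached down to a WT library of its tissue. The rises were 2.22 ± 0.26 and 1.37 ± 0.26 log2 (adjusted p = 1.42e-06 and 0.000707). Gstm4 rose by 1.12 and 0.62 log2, and Mgst1 by 1.101 and 0.73 log2, in lung and colon. Both colon calls were lost on the TPM scale (adjusted p = 0.0954 and 0.0745) and with the length trend removed (adjusted p = 0.1 and 0.107), where the lung rise of Mgst1 was 0.52 log2 and did not pass either (adjusted p = 0.0508).

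Alpha class transferases were among those with a tissue difference. Gsta1 had 0.369, 0.553, 0.359, 0.624 and 0.409 FPKM in WT lung and 554, 351, 163, 0.684 and 377 FPKM in KO lung. Its colon values were 15.3, 23.7, 9.43, 12.1 and 10.4 FPKM in WT and 21, 41.4, 14.2, 55.2 and 28 FPKM in KO. In lung 4 KO libraries were far above WT and the replicate 4 library was just above the WT range, and in colon the groups overlapped. No WT lung library reached 1 FPKM, so Gsta1 passed the filter in lung through those 4 KO libraries alone. Its rise in lung was 6.304 ± 1.02 log2 and its colon difference 1.04 ± 1.02 log2 (adjusted p = 4.61e-05 and 0.443). The model gives both tissues 1 SE per gene, so the wide spread of KO lung entered the colon test too. The tissue difference of 5.26 (95% interval 2.24 to 8.29, adjusted p = 0.0323) failed in 10 of the 20 fits that leave out 1 library, with an adjusted p of up to 0.0651. Gsta2 and Gsta4 had differences of 3.26 and 2.17 log2 (adjusted p = 0.0281 and 0.0252), and that of Gsta2 failed in 4 of the 20 fits, with an adjusted p of up to 0.0565 without KO lung replicate 2. Gsta1 and Gsta2 are near-identical copies, so reads may be split between them. Cbr3, a carbonyl reductase, rose in both by 3.06 and 1.695 log2, and Gpx2, a glutathione peroxidase of epithelia, by 2.91 and 1.74 log2; the colon rise of Gpx2 (adjusted p = 0.0297) was lost on leaving out any 1 of 4 colon libraries, to an adjusted p of 0.0874 without WT colon replicate 3.

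Of 25 proteasome subunits tested, 22 rose in lung and 17 in colon, the same 17 rose in both, none fell, and none had a tissue difference by limma (4 at an unadjusted p under 0.05); 1 passed without the 3 libraries named above and 1 under upper quartile scaling. The median was 1 log2 in lung and 0.66 log2 in colon, and of all genes tested 27.7% rose in lung and 18.9% in colon. Psmc4, an ATPase subunit of the cap, had 40.2, 40.3, 37.3, 38.2 and 47 FPKM in WT lung and 145, 105, 73.2, 83.6 and 145 FPKM in KO lung, and 42.9, 43.4, 38.1, 46.7 and 46.9 and 57.3, 108, 88.1, 99 and 109 FPKM in WT and KO colon. The groups did not overlap in either tissue. Psmc4 rose by 1.37 ± 0.19 and 1.03 ± 0.19 log2 (adjusted p = 8.29e-06 and 0.000548). Psmb5 rose by 1.78 and 0.88 log2, and Psmb4, Psmb3, Psmb1 and Psmc5 by between 1.14 and 1.82 log2 in lung and between 0.54 and 1.02 log2 in colon. The colon call was lost on leaving out 1 library in 5 of 20 fits for Psmb1 and in 2 for Psmb3, with an adjusted p of up to 0.0924 and 0.0598, both without KO colon replicate 2; that of Psmb1 was also lost with the length trend removed (adjusted p = 0.106). With the trend on length removed 17 rose in lung and 14 in colon.

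Other genes were among the largest shared rises. Ckb, the brain-type creatine kinase, rose by 1.78 ± 0.23 log2 in lung and 1.82 ± 0.23 log2 in colon, with no overlap of the groups. Tomm6, a subunit of the mitochondrial import pore, rose by 2.01 and 1.64 log2, and Mrpl53, a protein of the mitochondrial ribosome, by 2.92 and 1.64 log2. C2cd4b rose by 1.64 and 2.098 log2. The groups of C2cd4b overlapped in both tissues. Those of Mrpl53 overlapped in colon, where WT replicate 2 had 30.5 FPKM and the highest KO library 28.7 FPKM. The tissue differences of Ckb, Tomm6, Mrpl53 and C2cd4b had adjusted p of 0.961, 0.752, 0.221 and 0.626.

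Large shared falls included those of Ston1, Vcl, Mrtfb and Pdk4. Of the 22 integrin and focal adhesion genes tested, Vcl among them, 2 fell in both tissues, against 12.8% of all genes. Ston1, an endocytic adaptor, had 38.5, 39.1, 51.4, 45.3 and 36.9 FPKM in WT lung and 0.511, 0.916, 1.96, 2.1 and 0.635 FPKM in KO lung. It had 4.75, 3.71, 10.3, 6.29 and 7.94 FPKM in WT colon and 0.777, 0.145, 1.08, 0.851 and 0.851 FPKM in KO colon. The groups did not overlap in either tissue, and the lung difference was the larger one. The log2 differences were -4.33 ± 0.24 in lung and -2.08 ± 0.24 in colon, and the tissue difference of -2.25 passed (adjusted p = 0.00123). Vcl, the gene of vinculin, fell by 3.43 and 1.97 log2, and Mrtfb, a coactivator of serum response factor, by 1.98 and 2.12 log2, and their tissue differences did not pass (adjusted p = 0.0838 and 0.901).

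Pdk4, the kinase that turns off pyruvate dehydrogenase in fasting, had 48.5, 29, 28.4, 23.3 and 34.2 FPKM in WT lung and 2.55, 3.05, 5.06, 3.04 and 2.15 FPKM in KO lung. The colon values were 3.43, 18.4, 4, 5.15 and 7.04 FPKM in WT and 1.14, 0.429, 1.68, 0.673 and 0.995 FPKM in KO. The groups did not overlap in either tissue. Pdk4 fell by 3.01 log2 in lung and 1.92 log2 in colon (adjusted p = 3.93e-07 and 0.000196). Angptl4, an inhibitor of lipoprotein lipase, fell by 2.44 and 1.43 log2. Slc34a2, a phosphate transporter of alveolar type 2 cells and gut, had -1.85 log2 in lung and -3.004 log2 in colon, falls with no overlap of the groups in either.

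Of 17 glucocorticoid-responsive genes tested, 11 fell and 3 rose in lung, 3 fell and 1 rose in colon, and the tissue difference passed for 4, all downward. Among all genes, 27.7% rose and 28.5% fell in lung, 18.9% rose and 17% fell in colon, and 7.75% had a tissue difference. The list median was -1.07 log2 in lung and -0.07 log2 in colon, and without the 3 libraries named above the colon median was 0.08 log2 and 9 had a tissue difference. Zbtb16, a zinc finger repressor, fell in both, by 3.45 log2 in lung and 1.28 log2 in colon, with a difference of -2.17 (adjusted p = 0.0188, 0.135 with a pseudocount of 0.1 FPKM and 0.0684 on the TPM scale). Klf9 had 66.4, 69.3, 73.4, 76.1 and 87.4 FPKM in WT lung and 23.6, 22.7, 40.6, 37.6 and 28.5 FPKM in KO lung, and 15.2, 14.1, 15.7, 14.4 and 15.6 and 21.3, 11, 13.5, 9.65 and 12.2 FPKM in WT and KO colon. The lung groups did not overlap and the colon groups did. The tissue difference of Klf9, a Krüppel-like factor, was -1.098 ± 0.25 log2 (adjusted p = 0.0141), and that of Cdkn1a, the p21 cell cycle inhibitor, -1.45 ± 0.34 log2 (adjusted p = 0.0168).

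Cldn4, a claudin of tight junctions, had 3.39, 3.07, 2.8, 2.75 and 3.47 FPKM in WT lung and 488, 124, 50.8, 4.56 and 89.4 FPKM in KO lung. Its colon libraries had 32.7, 107, 34.4, 36.6 and 48.6 FPKM in WT and 28.5, 5.73, 36, 14.2 and 21.9 FPKM in KO. The lung groups were apart, by little for KO replicate 4 and by far for the others, while the colon groups overlapped. Its rise in lung was 4.08 ± 0.76 log2 and its colon difference -1.31 ± 0.76 log2 (adjusted p = 0.000171 and 0.183). As for Gsta1, this SE is shared by the tissues, so the spread of KO lung entered the colon test. The tissue difference was 5.39 (95% interval 3.16 to 7.63, adjusted p = 0.00655).

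Sprr1a, a cornified envelope precursor, and Uchl1, a ubiquitin hydrolase, had tissue differences of 4.29 and 3.46 log2 (adjusted p = 0.00271 and 0.0236). Timp1, an inhibitor of matrix metalloproteinases, had 6.93, 2.27, 3.17, 3.31 and 4.27 FPKM in WT lung and 39, 19.5, 15.3, 52.6 and 47.4 FPKM in KO lung, and 2.88, 7.3, 2.9, 3.86 and 3.5 and 1.75, 3.61, 2.24, 3.2 and 4.22 FPKM in WT and KO colon. All 5 KO lung libraries exceeded WT, replicate 4 included, and the colon groups overlapped. Its tissue difference was 3.08 ± 0.45 log2 (adjusted p = 0.00111). Retnla, a resistin-like secreted protein of alternatively activated macrophages and airway epithelium, had 60.3, 27.1, 38.6, 38.7 and 51 FPKM in WT lung and 470, 303, 315, 349 and 1181 FPKM in KO lung. It was between 0.809 and 5.44 FPKM in all 10 colon libraries. The lung groups were separated in every library, and the difference of 4 ± 0.47 log2 passed (adjusted p = 0.000157).

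**Figure D4:**
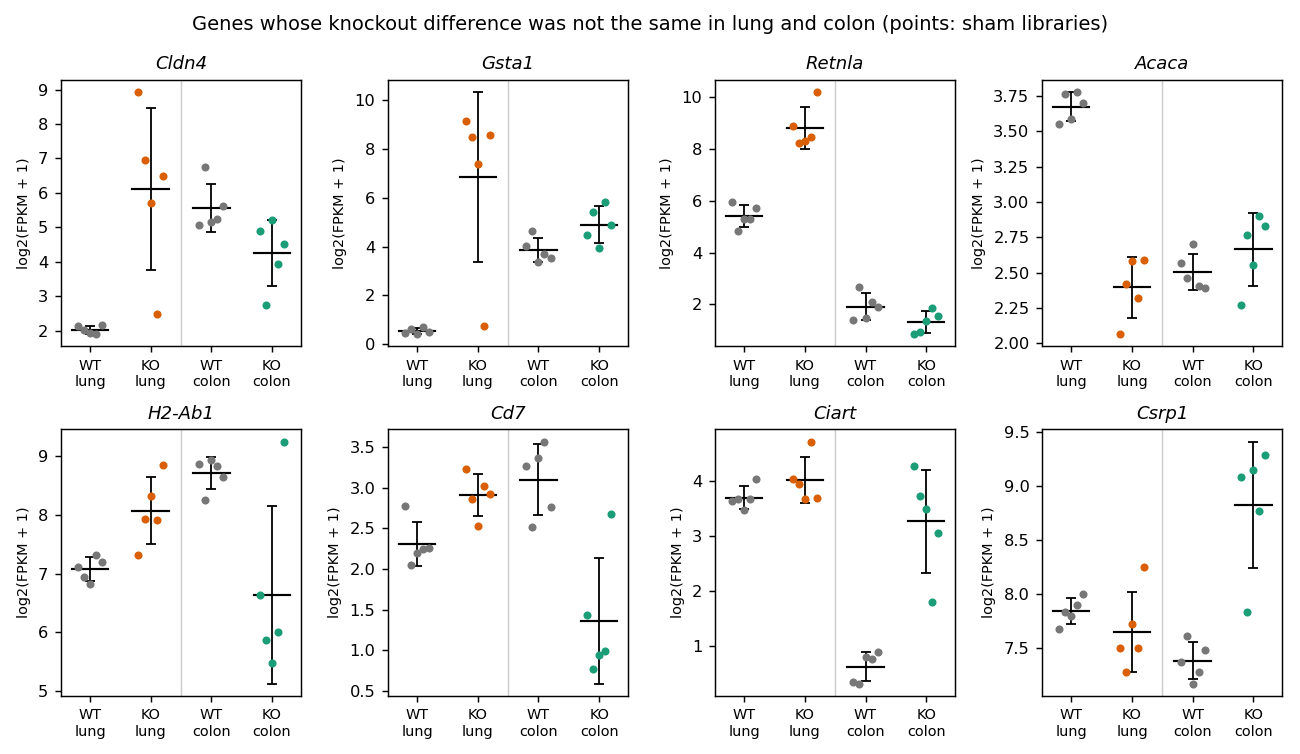
Points are the 5 sham libraries of each group for 8 genes whose tissue difference passed, on a log2(FPKM + 1) axis that differs between panels and does not start at 0; bars are the mean and error bars the SD. Cldn4, Gsta1, Retnla and Acaca are apart in lung, with KO replicate 4 of Gsta1 at 0.684 FPKM near WT, and H2-Ab1, Cd7, Ciart and Csrp1 differ in colon, with KO replicate 5 of H2-Ab1 at 606 FPKM above WT.

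Other genes also rose in lung only. Tmem176b, a membrane protein of myeloid and other cells, had 225, 221, 196, 212 and 235 FPKM in WT lung and 664, 574, 483, 487 and 631 FPKM in KO lung. The colon had 107, 113, 111, 117 and 111 FPKM in WT and 105, 168, 113, 140 and 134 FPKM in KO. The lung groups were well apart with a small spread and the colon groups overlapped, and the tissue difference was 1.15 ± 0.18 log2 (adjusted p = 0.00176). Rbp7, a retinol-binding protein, Rec8, a cohesin subunit, and B3gnt8, a glycosyltransferase, had differences of 2.87, 1.82 and 1.39 log2 (adjusted p = 0.00131, 0.00392 and 0.00271). The spread of Rbp7 was wide, with 6.72, 7.14, 11.7, 10.7 and 41.2 FPKM in KO lung.

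Of 17 lipogenesis genes, 8 fell and 3 rose in lung, 2 rose and none fell in colon, and the tissue difference passed for 7, all downward. For all genes the shares were 27.7% up and 28.5% down in lung, 18.9% up and 17% down in colon, and 7.75% for the difference. The list median was -0.66 log2 in lung and 0.16 log2 in colon, the latter -0.01 log2 after rescaling without mitochondrial and hemoglobin genes, which moves the median of all genes in colon to -0.146. Without the 3 libraries named above 5 rose and 1 fell in colon, and the difference passed for 9 downward and 1 upward. Acaca, acetyl-CoA carboxylase, had 10.7, 12.6, 11, 12.7 and 12 FPKM in WT lung and 3.19, 4.35, 5, 3.99 and 5.03 FPKM in KO lung. Colon levels were 4.93, 4.51, 5.5, 4.31 and 4.25 FPKM in WT and 3.82, 5.82, 4.87, 6.47 and 6.11 FPKM in KO. All KO lung libraries were below all WT lung libraries, and the colon groups overlapped. Its tissue difference was -1.44 ± 0.18 log2 (adjusted p = 0.000302).

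Fasn, fatty acid synthase, had a tissue difference of -1.91 ± 0.37 log2, and Lpin1, a phosphatidate phosphatase, of -1.62 ± 0.25 log2 (adjusted p = 0.00607 and 0.00131). Srebf1, the transcription factor above these enzymes, rose in both tissues by 0.82 and 1.398 log2 with no overlap, and its lung call was lost on the TPM scale (0.557 log2, adjusted p = 0.0705). Me1, malic enzyme, had 0.71 and 0.77 log2 and passed in neither. Mid1ip1, which activates acetyl-CoA carboxylase, and Fads1, a fatty acid desaturase, rose in colon only, by 1.296 and 0.83 log2, with tissue differences of -1.07 and -1.09 (adjusted p = 0.00121 and 0.0044). Summed adipocyte genes were 874 to 925 FPKM in WT lung and 174 to 377 in KO lung, 151 to 343 in WT colon and 122 to 170 in KO colon, and their part in the lipid genes was not tested.

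Of 19 cholesterol synthesis genes, 9 rose and 2 fell in lung, 14 rose and none fell in colon, 8 rose in both, and 5 had a tissue difference, all downward. The median was 0.31 log2 in lung and 0.77 log2 in colon. Calls over all genes were 27.7% up and 28.5% down in lung, 18.9% up and 17% down in colon, and 7.75% for the difference. On the TPM scale 7 rose and 7 fell in lung with a median of 0.09 log2, and 10 rose and none fell in colon. Mvk, mevalonate kinase, had 10.5, 9.57, 11.9, 9.47 and 9.68 FPKM in WT lung and 24.6, 25.9, 23.2, 24.1 and 21.5 FPKM in KO lung, and 19.9, 19.8, 17.3, 18.2 and 10.5 and 28, 56, 36.7, 39.2 and 38.1 FPKM in WT and KO colon. The groups were apart in both tissues. Mvk rose by 1.15 ± 0.16 and 1.16 ± 0.16 log2, a difference of -0.0074 (95% interval -0.49 to 0.47). Fdft1 and Fdps, the squalene and farnesyl diphosphate synthases, rose by 1.29 and 1.29 log2 in lung and by 1.397 and 1.57 log2 in colon.

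Lss, lanosterol synthase, fell by 0.52 log2 in lung and rose by 0.73 log2 in colon (adjusted p of the difference = 0.00797), its lung call was lost without KO lung replicate 5 (adjusted p = 0.0567) or WT lung replicate 4, and the lung value was 0.0095 log2 with the length trend removed. The colon call of Lss was lost on the TPM scale (adjusted p = 0.0771). Insig1, which retains the sterol sensor in the endoplasmic reticulum, fell by 0.56 log2 in lung and had 0.37 log2 in colon, which did not pass. Its tissue difference was -0.93 log2 (adjusted p = 0.0153).

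Of 22 integrin and focal adhesion genes tested, 15 fell and 2 rose in lung, 2 fell and 2 rose in colon, and the tissue difference passed for 4, all downward. Beside these counts, 27.7% of all genes rose and 28.5% fell in lung, 18.9% rose and 17% fell in colon, and 7.75% had a tissue difference. The list median was -0.72 log2 in lung and -0.11 log2 in colon, and with the length trend removed -0.35 and 0.10 log2, where 4 rose and 9 fell in lung and the difference passed for 1 upward and 2 downward. On the TPM scale 2 had a tissue difference. Fermt2, the kindlin that activates integrins, had 82.7, 103, 107, 122 and 104 FPKM in WT lung and 20.2, 27.9, 33.8, 44.7 and 28.7 FPKM in KO lung, and 11.6, 9.99, 11.1, 11.1 and 11.9 and 17.3, 5.99, 20.4, 9.87 and 12.6 FPKM in WT and KO colon. Lung KO lay below lung WT in every library and the colon groups overlapped, with a tissue difference of -1.87 ± 0.33 log2 (adjusted p = 0.00336). Itgb1 and Itga1, the integrin beta-1 and alpha-1 chains, had differences of -0.97 and -1.22 log2 (adjusted p = 0.0194 and 0.0357), and that of Itga1 failed in 9 of the 20 fits, with an adjusted p of up to 0.0682 without KO lung replicate 2, on the TPM scale (adjusted p = 0.0708) and with the length trend removed (adjusted p = 0.093). Tln2, a talin, fell in both, by 1.08 and 0.46 log2, with its colon call lost in 7 of the 20 fits (adjusted p of up to 0.0983, without WT colon replicate 3). With the length trend removed neither call of Tln2 passed, at -0.326 and -0.0767 log2 (adjusted p = 0.0839 and 0.74). Itga6 fell by 2.74 log2 in lung and had -1.15 log2 in colon, which did not pass.

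Further lung only falls were of Zeb1, a repressor of epithelial genes in mesenchymal cells, Tspan12, a tetraspanin of the Norrin receptor, and Klf7, a Krüppel-like factor. Zeb1 had 22.7, 29, 28.9, 31.5 and 32.2 FPKM in WT lung and 5.79, 5.76, 7.11, 10.1 and 6.46 FPKM in KO lung, and 3.18, 2.28, 2.76, 2.68 and 3.13 and 2.95, 1.12, 3.05, 1.89 and 2.02 FPKM in WT and KO colon. The lung groups were apart and the colon groups overlapped at levels near the lower limit of the filter. The tissue differences of Zeb1, Tspan12 and Klf7 were -1.63, -1.73 and -1.49 log2 (adjusted p = 0.00111, 0.0011 and 0.00131). Fn1, fibronectin, fell by 1.53 log2 in lung and had 0.76 log2 in colon, which did not pass, and its tissue difference (adjusted p = 0.0411) failed in 15 of the 20 fits that leave out 1 library, on the TPM scale (adjusted p = 0.0624) and with the length trend removed (adjusted p = 0.0698). Mfsd4a, a membrane transporter, was called in both tissues, from 22.1 ± 6.85 to 0.985 ± 0.292 FPKM in lung and from 58.7 ± 14.5 to 37.2 ± 13.7 FPKM in colon, with the lowest tissue difference of the named genes, -2.81 ± 0.37 log2. Its colon call failed in 13 of the 20 fits that leave out 1 library and on the TPM scale (adjusted p = 0.0522).

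Of 21 endothelial genes tested, 12 fell and 1 rose in lung and 11 fell in colon, all 11 also in lung, and 3 had a tissue difference, all downward. Falls made up 28.5% of all genes in lung and 17% in colon, and calls in either direction 56.3% and 35.9%. The tissue difference passed for 7.75% of all genes. The list median was -0.66 log2 in lung and -0.62 log2 in colon, and on the TPM scale none had a tissue difference. Pecam1, the endothelial partner of CD177, had 254, 293, 285, 286 and 301 FPKM in WT lung and 52.2, 94.9, 130, 176 and 132 FPKM in KO lung. In colon it had 12.5, 11.5, 16.4, 13.9 and 12.1 FPKM in WT and 6.81, 3.92, 5.59, 5.7 and 7.22 FPKM in KO. The groups did not overlap in either tissue. Pecam1 fell by 1.38 ± 0.22 log2 in lung and 1.07 ± 0.22 log2 in colon (adjusted p = 4.78e-05 and 0.00148), a difference of -0.31 (95% interval -0.97 to 0.36, adjusted p = 0.577).

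Cdh5, Ptprb and Erg, which encode the endothelial cadherin, a phosphatase that acts on it and an endothelial transcription factor, fell in both and had tissue differences of -1.37, -1.22 and -0.74 log2 (adjusted p = 0.0323, 0.0269 and 0.039). These differences failed in 8, 4 and 13 of the 20 fits that leave out 1 library, with the highest adjusted p of 0.0609, 0.0534 and 0.0752, each without KO lung replicate 2. The colon call of Ptprb was lost in 9 of them, with an adjusted p of up to 0.0826 without KO colon replicate 2. Their colon levels were below 6 FPKM, where the scale understates a fall, and with a pseudocount of 0.1 FPKM the differences of Ptprb, Cdh5 and Erg were -0.746, -1.07 and -0.127 log2 and did not pass (adjusted p = 0.211, 0.113 and 0.809). Mmrn1, of lymphatic endothelium, fell by 1.04 log2 in lung and 1.56 log2 in colon. The summed level of 22 endothelial genes was 3207 to 4060 FPKM in WT lung and 1452 to 4115 in KO lung, with KO replicate 1 the lowest and replicate 4 the highest, so the sum overlapped while Pecam1 did not.

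Of 17 smooth muscle genes tested, 12 rose and none fell in colon, 7 rose and 5 fell in lung, all 7 of them also in colon, and 6 had a tissue difference, all downward. The median was 1.14 log2 in colon and 0.31 log2 in lung. Rises and falls were 18.9% and 17% of all genes in colon and 27.7% and 28.5% in lung, and differences 7.75%. Acta2, smooth muscle actin, had 51.8, 49.2, 51.7, 45 and 46.5 FPKM in WT lung and 142, 124, 102, 100 and 161 FPKM in KO lung. The colon had 219, 270, 217, 235 and 275 FPKM in WT and 988, 394, 1060, 762 and 935 FPKM in KO. KO exceeded WT in every library of both tissues. Acta2 rose by 1.33 ± 0.21 and 1.69 ± 0.21 log2, and Tagln and Tpm2, an actin-binding protein and a tropomyosin of the contractile apparatus, by 1.25 and 1.66 log2 in lung and 1.74 and 1.84 log2 in colon.

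Some members of that list went another way in lung. Synm, the intermediate filament protein synemin, had 13.6, 12.3, 14.4, 13.7 and 13.4 FPKM in WT lung and 3.17, 3.98, 4.67, 5.46 and 5.67 FPKM in KO lung, and 10.2, 12, 11.2, 9.66 and 16 and 31.5, 14.5, 32.5, 18.4 and 26.3 FPKM in WT and KO colon. In lung KO lay below WT in every library, and in colon KO lay above WT except for replicate 2 within the WT range. Its tissue difference was -2.35 ± 0.27 log2 (adjusted p = 0.000137). Synpo2, an actin-bundling protein, fell by 0.70 log2 in lung and rose by 0.76 log2 in colon, but its lung value was -0.0495 log2 with the length trend removed (adjusted p = 0.863) and its colon call was lost on the TPM scale (adjusted p = 0.101). Mylk, the myosin light chain kinase, fell by 1.51 log2 in lung and had 0.44 log2 in colon, which did not pass. Csrp1, a LIM protein of smooth muscle, rose in colon only, from 167 ± 20.5 to 480 ± 157 FPKM, with a tissue difference of -1.64 (adjusted p = 0.00592). Summed smooth muscle genes were 1667 to 2472 FPKM in WT colon and 3629 to 8673 in KO colon, and 652 to 736 and 792 to 1392 in lung, and the part of muscle tissue in these differences was not tested.

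**Figure D5:**
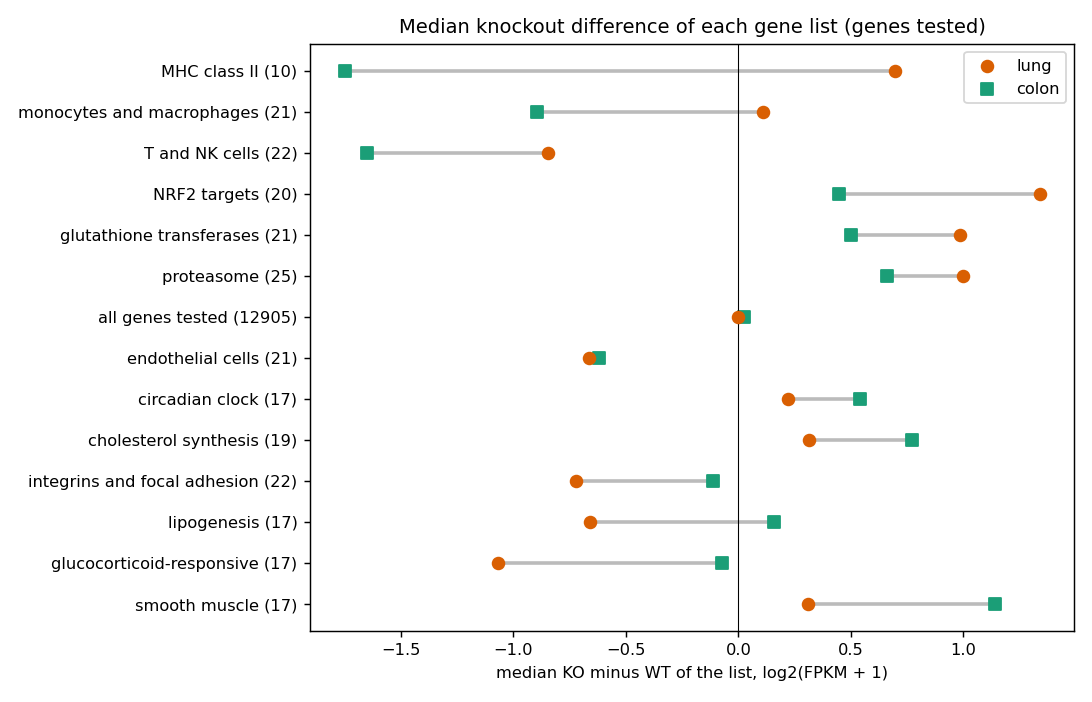
Each line is a gene list with the number of its genes tested; circles give the median KO minus WT difference in lung and squares in colon, on log2(FPKM + 1), ordered by the median tissue difference. MHC class II genes stand at 0.695 in lung and -1.75 in colon, smooth muscle genes at 0.31 and 1.14, and all genes tested near 0 in both.

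Of 10 MHC class II genes tested, 7 fell and none rose in colon, 1 rose and none fell in lung, and the tissue difference passed for 5, all upward. By comparison, 17% of all genes fell in colon and 27.7% rose in lung, and 7.75% had a tissue difference. The list median was -1.75 log2 in colon and 0.695 log2 in lung, and on the TPM scale 2 had a tissue difference. H2-Ab1, the beta chain of I-A, had 137, 122, 112, 159 and 145 FPKM in WT lung and 158, 244, 319, 240 and 462 FPKM in KO lung. The colon values were 466, 305, 485, 452 and 401 FPKM in WT and 98.4, 57.2, 43.4, 63 and 606 FPKM in KO. In colon 4 KO libraries were far below WT and replicate 5 was above all of them, and in lung the groups overlapped by 1 library. Its colon fall was 2.06 ± 0.48 log2 (adjusted p = 0.00305) and the tissue difference 3.05 (95% interval 1.64 to 4.46, adjusted p = 0.0127). The lung difference of H2-Ab1 was 0.99 ± 0.48 log2 and did not pass (adjusted p = 0.0844). This SE is shared by the tissues, so the spread of KO colon entered the lung test.

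H2-Eb1, the I-E beta chain, and H2-DMa, a chain of the peptide-loading chaperone, had tissue differences of 2.52 and 2.397 log2 (adjusted p = 0.0215 and 0.0298), and that of H2-DMa failed in 6 of the 20 fits that leave out 1 library and on the TPM scale (adjusted p = 0.0521). The summed level of the 10 genes was 2711, 1405, 2827, 2560 and 2351 FPKM in WT colon and 533, 275, 250, 400 and 4077 FPKM in KO colon. Without the 3 libraries named above, 7 fell in colon, 4 rose and 1 fell in lung and 7 had a tissue difference, and the colon median was -2.51 log2.

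Of 22 T and NK cell genes tested, 20 fell in colon and 10 in lung, 9 in both, none rose, and the tissue difference passed for 2, both upward. The median was -1.65 log2 in colon and -0.85 log2 in lung. Genes that fell were 17% of all in colon and 28.5% in lung, and 7.75% had a tissue difference. Cd4, the coreceptor for MHC class II, had 2.59, 1.89, 1.84, 1.99 and 1.82 FPKM in WT lung and 0.532, 0.893, 0.665, 1.45 and 0.639 FPKM in KO lung. Its colon libraries had 5.36, 4.25, 7.42, 7.62 and 6.22 FPKM in WT and 0.824, 0.273, 0.526, 0.738 and 2.64 FPKM in KO. KO was below WT in every library of both tissues, and the falls of 0.74 and 1.92 log2 differed by 1.19 (adjusted p = 0.025, 0.0521 without WT colon replicate 4, 0.0815 with a pseudocount of 0.1 FPKM and 0.0946 on the TPM scale).

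Zap70, the kinase of the T cell receptor, and Cd7, a surface protein of T and NK cells, fell in colon only by 1.48 and 1.74 log2, with tissue differences of 1.86 and 2.34 (adjusted p = 0.0238 and 0.00273). Lat, an adaptor that Zap70 phosphorylates, fell by 1.99 log2 in colon and its tissue difference did not pass (adjusted p = 0.108). Cd28 and Il7r, a costimulatory receptor and the interleukin 7 receptor, fell in both, by 0.88 and 1.01 log2 in lung and 0.97 and 0.65 log2 in colon, and the colon call of Il7r was lost in 4 of the 20 fits, with an adjusted p of up to 0.0658 without WT colon replicate 3. The summed level of 24 T and NK cell genes was 200 to 285 FPKM in WT colon and 21.1, 9, 16.6, 23 and 454 FPKM in KO colon, so here too replicate 5 was the highest of the colon libraries. Without the 3 libraries named above, 22 fell in colon, 16 fell in lung and 12 had a tissue difference.

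Of 21 monocyte and macrophage genes tested, 14 fell in colon and none rose, 4 fell and 3 rose in lung, 4 fell in both, and the tissue difference passed for 7, all upward. In the whole set of genes 17% fell in colon and 7.75% had a tissue difference. In lung 27.7% of all genes rose and 28.5% fell, so the lung calls of this list were below the background. The list median was -0.90 log2 in colon and 0.11 log2 in lung, the latter -0.156 on the TPM scale, where 4 had a tissue difference, and -0.214 with the length trend removed. Without the 3 libraries named above 19 fell in colon, 7 rose and 7 fell in lung and 11 had a tissue difference. C1qa, a chain of the first complement component made by macrophages, had 33.7, 17.2, 17.7, 20.3 and 31.3 FPKM in WT lung and 36.5, 56.7, 66.4, 54.6 and 88.3 FPKM in KO lung. Colon levels were 75.8, 92, 82.1, 93.5 and 109 FPKM in WT and 29.2, 40.8, 26.6, 33.1 and 98.1 FPKM in KO. KO lung lay above WT lung in every library, and KO colon lay below WT colon except replicate 5. Its rise in lung of 1.297 and fall in colon of 1.14 log2 differed by 2.44 ± 0.41 (adjusted p = 0.00271).

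C1qc fell in colon only by 1.35 log2 and Trem2, a lipid-sensing receptor, rose in lung only by 1.08 log2, with tissue differences of 2.01 and 1.68 (adjusted p = 0.00698 and 0.0124). Csf1r and Adgre1, the receptor for macrophage growth factor and the F4/80 antigen, fell in both, by 0.87 and 0.99 log2 in lung and 1.08 and 1.27 log2 in colon. Cd86, a costimulatory ligand, and Tmem86a fell in colon only by 0.80 and 0.81 log2, with differences of 1.19 and 1.14 (adjusted p = 0.00741 and 0.00982). Summed macrophage genes were 770 to 964 FPKM in WT colon and 314 to 541 FPKM in 4 KO colon libraries, with 1001 FPKM in replicate 5, and 3693 to 4689 FPKM in WT lung and 1265 to 5313 FPKM in KO lung.

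Among the genes called in opposite directions, Ccl8, a monocyte chemokine, had 1.9, 0.879, 0.713, 1.34 and 0.955 FPKM in WT lung and 6.34, 7.03, 3.55, 3.87 and 8.79 FPKM in KO lung. In colon it had 47.9, 53.9, 64.2, 68.6 and 66.7 FPKM in WT and 1.66, 16.7, 7.64, 5.3 and 80 FPKM in KO. All KO lung libraries were above WT lung, and 4 of 5 KO colon libraries were below WT colon. The rise of 1.65 log2 and the fall of 2.39 log2 gave a tissue difference of 4.04 ± 0.79 (adjusted p = 0.00634). With the length trend removed the lung rise was 1.14 log2 and did not pass (adjusted p = 0.0851).

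Aif1, a calcium-binding protein of macrophages, Mzb1, a chaperone of plasma cells, and Tigit, an inhibitory receptor of T and NK cells, also rose in lung and fell in colon, with tissue differences of 2.32, 2.25 and 2.88 log2 (adjusted p = 0.00271, 0.00383 and 0.0202). Both tissue calls of Tigit were lost in some fits that leave out 1 library, 2 of 20 for lung and 8 of 20 for colon. The lung calls of Tigit and Mzb1 were lost on the TPM scale (adjusted p = 0.0599 and 0.0875) and with the length trend removed (adjusted p = 0.168 and 0.336). Beside Synm and Synpo2, the named genes lower in lung and higher in colon included Lims2, a focal adhesion adaptor, Ank1, an ankyrin, and Arl4d, a small GTPase, with tissue differences of -2.04, -1.82 and -1.52 (adjusted p = 0.0159, 0.0153 and 0.0203). The colon call failed in 6 of the 20 fits that leave out 1 library for Ank1 and in 12 for Arl4d, and for Lims2 without KO colon replicate 3 (adjusted p = 0.0521); its lung call failed without KO lung replicate 1 (adjusted p = 0.0721). On the TPM scale the colon calls of Lims2, Ank1 and Arl4d were all lost (adjusted p = 0.0845, 0.0829 and 0.15), and the lung call of Ank1 was lost with the length trend removed (adjusted p = 0.383). Mfsd2a, a lysolipid transporter, and Ckm, the muscle creatine kinase, rose in colon only by 2.08 and 2.18 log2, with differences of -2.24 and -2.21 (adjusted p = 0.0235 and 0.031), and that of Ckm failed in 7 of the 20 fits, with an adjusted p of up to 0.0598 without KO colon replicate 3, and with a pseudocount of 0.1 FPKM (adjusted p = 0.0626). Pln, a regulator of the calcium pump, passed for the difference alone, at -2.52 (adjusted p = 0.048), and failed in 14 of the 20 fits.

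Genes beside Cd177 were also counted. Of the 20 nearest tested genes, 10 on each side in the order of the GENCODE annotation, 11 rose and 2 fell in lung and 2 rose and 2 fell in colon, and 1, Phldb3, had a tissue difference, of 0.71 log2 (adjusted p = 0.023). Those called in both tissues in the same direction were Smg9 and Zfp428, which rose, and Irgq, which fell, by 0.68, 1.28 and -0.61 log2 in lung and 0.43, 0.7951 and -0.58 log2 in colon. The colon call of Smg9 was lost on the TPM scale (adjusted p = 0.165) and with the length trend removed (adjusted p = 0.0644), where the lung call of Irgq was lost too (-0.136 log2, adjusted p = 0.328). Calls in either direction were 13 of 20 in lung and 4 of 20 in colon, against 56.3% and 35.9% of all genes. By direction, 27.7% of all genes rose and 28.5% fell in lung, and 18.9% rose and 17% fell in colon. Rises in lung, 11 of 20, were thus more frequent beside Cd177 than among all genes, and the reason was not tested. The tissue difference passed for 7.75% of all genes. Of 6 tested genes known to differ between C57BL/6J and C57BL/6N mice, 1, Ide, an insulin-degrading enzyme, was called in both tissues, at 0.47 and 0.41 log2, and its colon call was lost in 5 of the 20 fits that leave out 1 library, with an adjusted p of up to 0.0891 without KO colon replicate 3. On the TPM scale neither call of Ide passed (adjusted p = 0.409 and 0.392).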

How the data were processed

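The authors sequenced mRNA-enriched RNA of lung and colon and deposited 1 table of FPKM values per tissue, with HISAT2 2.1.0 and StringTie 1.3.3b and the mm39 build named per the submitters' processing notes. No source used here gives their annotation or filters. The 2 tables were joined on the gene identifier, and the 20 sham libraries were grouped by the labels. A gene was kept where 4 or more sham libraries of each tissue had 1 FPKM or more. One limma 3.58.1 model (R 4.3.3) of 4 group means on log2(FPKM + 1), with a trended prior variance, gave KO minus WT in lung, KO minus WT in colon and their difference. The 4 groups share 1 spread per gene, so a wide spread in 1 tissue also weakens the call in the other. With each tissue fitted alone, colon calls numbered 4037, lung only genes 676 and colon only genes 103. Benjamini-Hochberg adjustment ran over all tested genes in each comparison, with a threshold of 0.05, and every adjusted p in the text comes from this model unless another setting is named. Cd177 was also compared by an exact permutation test on FPKM. Transcript length is that of the reference gene models, known for 99.7% of tested genes. Python 3.11.15 with numpy 2.4.6, pandas 2.3.3, scipy 1.17.1 and matplotlib 3.10.9 did the rest. The script was tested on simulated data.

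Read totals were estimated from the steps between low FPKM values, and how far they limit precision was not tested. The genes named are Cd177, Pecam1, the 10 highest and 10 lowest tissue differences, the 8 largest shared changes each way, 5 opposite genes each way, 4 lung only and 4 colon only genes each way, up to 3 plus 3 members per described list, and neighbours and substrain genes called in both tissues. Predicted genes and receptor segments were left out of the ranking, and some genes it named are not reported here. Members, gene lists and the naming rule were chosen with earlier results of these data known. Alternatives were other pseudocounts, filters, scalings, variances, weights, a replicate block, removal of the length trend, and leaving out libraries. Replicate numbers did not pair the tissues: the correlation of same-numbered libraries was -0.0756 to 0.169.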

Additional observations from a re-analysis of the deposited data

Results flagged for a closer look

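The 2 tissues differed in the knockout effect, by the test of the difference itself, for 67 of the 114 named genes, a count set by how they were chosen; over all genes tested it was 7.75%. A positive tissue difference means that KO relative to WT was higher in lung than in colon, which a larger fall in colon also gives. That of Cd177 is the difference of its WT levels. The highest log2 tissue differences were Cldn4 5.39, Gsta1 5.26, Sprr1a 4.29, Ccl8 4.04, Retnla 4, Cd177 3.91 and Uchl1 3.46. The next values of that log2 difference were Gsta2 3.26, Timp1 3.08, H2-Ab1 3.05, Tigit 2.88, Rbp7 2.87, Srxn1 2.53 and H2-Eb1 2.52. A lower log2 difference was found for C1qa 2.44, H2-DMa 2.4, Cd7 2.34, Aif1 2.32, Blvrb 2.29, Mzb1 2.25 and Gsta4 2.17. It was, on the same log2 scale, C1qc 2.01, Zap70 1.86, Rec8 1.82, Taldo1 1.82, Trem2 1.68, B3gnt8 1.39 and Cd86 1.19. The lowest such log2 values were Cd4 1.19, Tmem176b 1.15 and Tmem86a 1.14.

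A negative tissue difference comes from a larger rise in colon, a larger fall in lung or both. The lowest log2 values were Mfsd4a -2.81, Pln -2.52, Nr1d1 -2.46, Synm -2.35, Ciart -2.32, Fn1 -2.29 and Ston1 -2.25. Next in size the log2 difference was Mfsd2a -2.24, Ckm -2.21, Zbtb16 -2.17, Lims2 -2.04, Mylk -1.94, Fasn -1.91 and Fermt2 -1.87. Smaller negative log2 differences were Tef -1.86, Ank1 -1.82, Tspan12 -1.73, Csrp1 -1.64, Zeb1 -1.63, Lpin1 -1.62 and Arl4d -1.52. Further log2 values were Klf7 -1.49, Synpo2 -1.46, Cdkn1a -1.45, Acaca -1.44, Cdh5 -1.37, Lss -1.25 and Ptprb -1.22. The log2 difference was also Itga1 -1.22, Klf9 -1.1, Fads1 -1.09, Mid1ip1 -1.07, Itgb1 -0.971, Insig1 -0.931 and Cry2 -0.814. Nearest to 0, the log2 value was Erg -0.738.

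A library stood far from the other 4 of its group, by the gap to its nearest neighbour against the range, in 37 of 454 groups of values. Chance flags about 1 in 20 groups. KO colon replicate 5 stood apart in FPKM for Tigit 3.05, C1qc 65.4, H2-DMa 96.3, Zap70 5.91, Lat 20.7, Cd28 1.02 and Adgre1 5. KO colon replicate 2 stood apart in FPKM for Fn1 12.6, Ston1 0.145, Vcl 0.626, Taldo1 539 and Mmrn1 0.4. WT colon replicate 2 stood apart in FPKM for C2cd4b 10.5, Srxn1 77, Lat 5.88, Fasn 10.6 and Me1 7.15. WT lung replicate 1 stood apart in FPKM for C2cd4b 8.03, Gsr 29.5, Cd4 2.59 and Cd28 2.4. KO lung replicate 4 stood apart in FPKM for Gsta1 0.684, C2cd4b 7.51 and Synpo2 1.9. KO colon replicate 1 stood apart in FPKM for Mrtfb 3.72 and Rec8 3.56. KO lung replicate 5 stood apart in FPKM for Vcl 0.636 and Ank1 0.809. WT lung replicate 4 stood apart in FPKM for Tpm2 19.7 and Ank1 0.832. KO colon replicate 3 stood apart in FPKM for Irgq 4.81. WT colon replicate 3 stood apart in FPKM for Mrtfb 7.35. WT colon replicate 4 stood apart in FPKM for Itga6 52.6. WT colon replicate 5 stood apart in FPKM for Mvk 10.5. KO lung replicate 1 stood apart in FPKM for Arl4d 32. KO lung replicate 3 stood apart in FPKM for Cry2 28.4. WT lung replicate 3 stood apart in FPKM for Mrpl53 10.5.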

How the results depend on the processing

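The totals of genes called in lung, called in colon and shared stayed within 1.5 times their reported values under the settings that keep all libraries, and the tissue difference and its classes did not. By direction, 3578 lung rises became 2199, 2439 colon rises 1277 and 1852 shared rises 990 on the TPM scale, and 1653 shared falls became 986 with the length trend removed. Given as tissue difference, opposite, lung only and colon only, the counts of 1000, 59, 594 and 109 genes became 1561, 36, 978 and 167 with a pseudocount of 5 FPKM, and 1752, 37, 1226 and 234 with no filter on low values. The fit with no filter tested 28861 genes, against 12905 in the main fit, and called 10060 in lung, so its counts are of a larger total. With a filter of 5 FPKM, which left 8277 genes to test, the same counts were 584, 38, 340 and 63. They were 496, 28, 316 and 47 on the TPM scale, and 615, 31, 381 and 60 after rescaling without mitochondrial and hemoglobin genes. Array weights gave 3425, 224, 1722 and 509. Without the libraries whose correlation with their group was under 0.94 they were 1765, 91, 1007 and 169, and without the 3 libraries that stand apart, chosen after seeing the data, 1848, 116, 965 and 273. The cause was not tested. With a replicate block the difference passed for 947 genes with genotype and number as 1 animal and for 962 with number as a fixed effect. Leaving out 1 library at a time gave 578 to 1621 tissue differences, 6634 to 7556 lung calls, 3618 to 5189 colon calls, 2782 to 3866 shared, 31 to 80 opposite, 359 to 935 lung only and 55 to 186 colon only genes, with 186 without KO colon replicate 5. KO minus WT FPKM of Cd177 ranged from -2.19 to -1.62 in lung and from -44.4 to -40.9 in colon. Over the log2 values of the named genes and all settings, 11694 kept direction and side of the threshold, 337 lost the threshold, 175 gained it and 1 reversed: Lss in lung, at 0.0095 log2 with the length trend removed. Among the list medians described, those of clock and macrophage genes in lung and of glucocorticoid-responsive, lipogenesis and integrin genes in colon also changed sign under the settings named beside them, and that of endothelial genes in colon was 0.0556 log2 over the 8 left by a filter of 5 FPKM. The counts behind an FPKM value were not used here, so its counting error is not given.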

Other observations

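Other gene groups were measured in both tissues, where 27.7% of all genes rose and 28.5% fell in lung, and 18.9% rose and 17% fell in colon. The tissue difference passed for 7.75% of all genes. Among the shortest of the 4 groups of transcript length, 52.9% rose in lung and 32.1% in colon. The counts below are of the main fit and take no account of transcript length. Of 30 nuclear genes of the respiratory chain, 24 rose in lung and 6 in colon, all 6 in both, and 1 had a tissue difference, upward, with medians of 0.90 and 0.40 log2. Of 40 cytosolic ribosomal protein genes, 26 rose in lung and 6 rose and 5 fell in colon, and none had a tissue difference by limma, with 9 at an unadjusted p under 0.05. Genes of the integrated stress response, which slows translation under stress, rose in 11 of 14 cases in lung, where 1 fell, and in 6 in colon, where none fell. Of 18 genes of the unfolded protein response 11 rose and 1 fell in lung, and 2 rose and 2 fell in colon. Of 23 type I interferon-stimulated genes none was called by limma in either tissue or for the difference, and at an unadjusted p under 0.05 the numbers were 2 in lung, 0 in colon and 0 for the difference. Of 20 neutrophil genes only 5 reached the filter in both tissues, and the summed level of the list was 229 to 444 FPKM in WT lung and 298 to 3344 FPKM in KO lung, with replicates 4 and 5 the highest. In colon it was 104 to 139 FPKM in WT and 135 to 681 FPKM in KO. The part of these cells in the other differences was not tested.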
